A study of Rattus norvegicus with 12 samples.

Results

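10 transcription factors that drive fat cell formation or run the lipid genes of the mature fat cell were followed in mammary glands of young rats. They are Pparg, Cebpa, Cebpb, Cebpd, Rxra, Nr1h3, Klf15, Ppara, Ppard and Ebf1, listed by name for their known roles, with no threshold on a measured value. Of these 10, 9 were found by symbol among the 16511 genes of the count table, and Cebpd was not analysed here. Of the 9 found, 8 had enough counts to be tested between the diets, all but Ppara.

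By the labels, RNA was sequenced from 12 mammary glands collected at PND21 (postnatal day 21), 6 from HFB offspring, whose dams ate a high fat butter diet, and 6 from CTL offspring, whose dams ate the control AIN diet. The design gives 1 gland per litter, and the study's methods name Sprague-Dawley rats. Those methods describe RNA sequencing of laser-captured epithelium from rats on high butterfat with or without bisphenol A, which is neither the tissue nor the pair of groups in the labels, and the labels are followed here. The sources also differ on when the maternal diet began and ended, so no exposure window is given. The libraries are named by diet and number, HFB 1 to HFB 6, CTL 7 to CTL 11 and CTL 14, and no batch is given for them. Total counts ran from 2320267 to 2760871 in the HFB libraries (median 2660268) and from 2403464 to 2944680 in the CTL libraries (median 2537563.5).

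The rat mammary gland grows as an epithelial tree inside a fat pad, so a library of the gland holds RNA of fat cells, fibroblasts, vessels, immune cells and epithelium together. In fat cell formation, Cebpb and Cebpd act early and switch on Pparg and Cebpa, which then maintain each other and the genes of lipid storage. Pparg, Ppara, Ppard and Nr1h3 are nuclear receptors that bind DNA as a pair with Rxra, while Klf15 and Ebf1 promote the same program from outside the receptor family.

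HFB 6 and CTL 14, 1 library of each diet, stood apart from the other 10 before any diet comparison. Levels are in CPM, a gene's counts relative to the library's total after TMM scaling in edgeR. The 7 of 8 lymphoid marker genes in the table summed to 754 CPM in HFB 6 and 722 CPM in CTL 14, against 2.51 to 132.8 CPM (median 13.1) in the other 10. The most abundant of them was Cd79b, a B cell receptor subunit. Of the 7, 6 were above all 10 other libraries in both, beside 22.3% of all genes tested. These glands are thus the pair with the most lymphoid RNA. The labels do not say which part of each gland was taken or whether a lymph node was included, and this was not tested.

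Most fat and stromal markers ran the other way in the same pair. The 8 of 8 adipocyte markers, led by Fabp4, summed to 23261 CPM in HFB 6 and 17249 CPM in CTL 14, against 29928 to 40397 CPM (median 34836) elsewhere. The 7 of 8 fibroblast markers, led by Col3a1, summed to 19745 and 19055 CPM, against 26947 to 44072 CPM (median 33693). No adipocyte or fibroblast marker found was at 0 in all libraries. Of the adipocyte markers 6 of 8, and of the fibroblast markers 5 of 7, were below all 10 other libraries in both. Of all genes tested, 19.2% were. The adipocyte exceptions, the secreted proteins Cfd and Retn, stood at 155.7% and 118% of the median of the other 10 in HFB 6, and at 83.5% and 58.0% in CTL 14. In bulk tissue, fewer fat cells and less RNA per fat cell cannot be told apart, and the part of cell make-up in the values given here was not tested.

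For the endothelial and epithelial lists the summed level was high in the pair, but their genes did not all move together. The 7 of 8 endothelial markers, led by Egfl7, summed to 854 CPM in HFB 6 and 781 CPM in CTL 14, against 218 to 327 CPM (median 256), with Cldn5 at 0 in all 12 libraries. Of these, 4 were above all 10 others in both, beside 22.3% of all genes tested. Cdh5, a junction protein of vessels, stood at 9.48% and 92.8% of the median of the other 10. The 6 of 8 epithelial markers, led by Krt8, summed to 654 and 635 CPM, against 114 to 601 CPM (median 338), with 3 of 6 above all 10 in both and Epcam, an epithelial adhesion protein, at 81.6% and 123.7%.

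The 8 of 8 macrophage markers, led by Lyz2, summed to 1536 CPM in HFB 6 and 1314 CPM in CTL 14, against 681 to 1106 CPM (median 807). Of the 8, 2 were above all 10 in both, near the 22.3% of all genes tested. Mrc1, a receptor of resident macrophages, was below all 10, at 46.5% and 34.7% of their median. The mean log2 CPM of the list, which weights its genes equally, was 5.91 in HFB 6 and 5.62, the lowest of 12, in CTL 14. The 6 of 8 skeletal muscle markers, led by Acta1, summed to 6087 CPM in HFB 6, the highest of 12, and 1139 CPM in CTL 14, against 165 to 5122 CPM (median 1545). CTL 11 (5122 CPM) and HFB 3 (4723 CPM) were also high in muscle RNA, and its part in the values of HFB 6 was not tested.

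Between the diets, no member passed the test over all genes. At an adjusted p under 0.05 edgeR called 0 of the 8 members and 0 of 9382 genes (0%). At an unadjusted p under 0.05 it called 1 of the 8 members, Cebpb, and 220 genes (2.34%), 122 of them higher in HFB and 98 lower, a majority that turned with limma voom (269 higher and 344 lower) and without HFB 6 (112 and 157). DESeq2 and limma voom also called 0 genes after adjustment, with 271 and 613 at an unadjusted p under 0.05. With a 2-fold change added to the unadjusted p, edgeR called 0 of the 8 members and 11 genes (0.117%). The HFB and CTL libraries overlapped for every member tested, while they did not for 10 genes (0.107%).

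What separated the libraries more than diet was the pair HFB 6 and CTL 14. Of the 8 members tested, 4 were lower in both than in all 10 other libraries: Cebpa, Rxra, Pparg and Klf15. The same held for 1805 of the 9382 genes (19.2%), and 2093 genes (22.3%) were higher in both than in all 10 others. Cebpb, Nr1h3, Ppard and Ebf1 did not show that pattern.

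**Figure D1:**
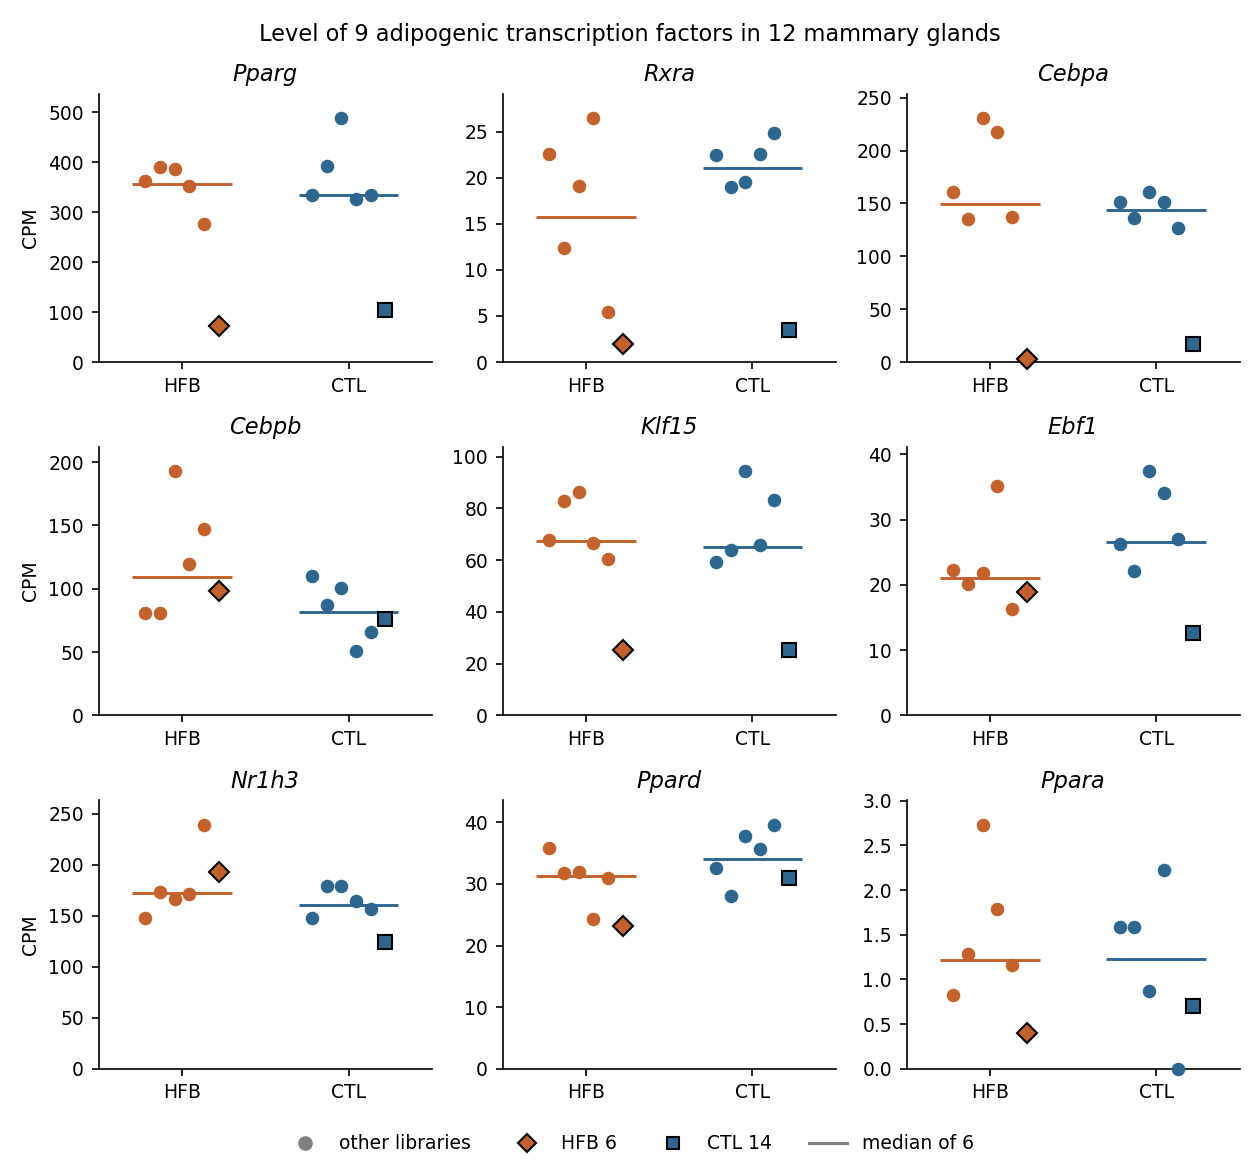
Level of the 9 members found in each of the 12 libraries, in CPM on a linear axis that starts at 0, by diet, with a line at the median of 6. HFB 6 (diamond) and CTL 14 (square) lie below all other libraries for Pparg, Rxra, Cebpa and Klf15, and the diets overlap in each panel.

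Because these 4 members were low together while Nr1h3 was not, their promoters are shown beside that of Nr1h3. Each window covers 250 bases before to 50 after a transcription start, from RefSeq on GRCr8, and 8 of the 10 members matched, with 9 starts in all. Ppard and Cebpd were not matched in the promoter set used. The windows lie at chr4:150096808-150097107 and chr4:150154522-150154821 for both starts of Pparg, which are 57714 bases apart, chr1:96896334-96896633 for Cebpa, chr3:31387642-31387941 for Rxra and chr4:124522765-124523064 for Klf15, all on the plus strand. That of Nr1h3 lies at chr3:97623180-97623479 on the minus strand. Capitals mark, on either strand, the GC box GGGCGG, the CCAAT box CCAAT, the TATA box TATAAA and the C/EBP core site TTGCG.
Pparg, first start: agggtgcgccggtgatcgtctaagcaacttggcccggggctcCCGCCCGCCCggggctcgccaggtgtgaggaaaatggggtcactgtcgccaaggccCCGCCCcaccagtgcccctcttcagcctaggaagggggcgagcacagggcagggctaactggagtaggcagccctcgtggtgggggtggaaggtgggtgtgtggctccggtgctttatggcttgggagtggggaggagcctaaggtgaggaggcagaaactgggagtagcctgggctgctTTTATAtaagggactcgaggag
Pparg, second start: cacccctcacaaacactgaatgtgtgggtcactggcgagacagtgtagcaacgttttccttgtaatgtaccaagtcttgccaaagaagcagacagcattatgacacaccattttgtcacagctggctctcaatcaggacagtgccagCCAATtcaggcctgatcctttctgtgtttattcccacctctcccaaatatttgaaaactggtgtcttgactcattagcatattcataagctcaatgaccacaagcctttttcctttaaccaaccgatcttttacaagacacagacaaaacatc
Cebpa: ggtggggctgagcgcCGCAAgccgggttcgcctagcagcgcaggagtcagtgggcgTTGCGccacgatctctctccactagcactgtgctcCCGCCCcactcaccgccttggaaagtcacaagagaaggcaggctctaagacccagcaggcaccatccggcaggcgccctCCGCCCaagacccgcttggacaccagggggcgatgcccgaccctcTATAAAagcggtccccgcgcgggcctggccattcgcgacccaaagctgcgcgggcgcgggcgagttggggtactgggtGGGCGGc
Rxra: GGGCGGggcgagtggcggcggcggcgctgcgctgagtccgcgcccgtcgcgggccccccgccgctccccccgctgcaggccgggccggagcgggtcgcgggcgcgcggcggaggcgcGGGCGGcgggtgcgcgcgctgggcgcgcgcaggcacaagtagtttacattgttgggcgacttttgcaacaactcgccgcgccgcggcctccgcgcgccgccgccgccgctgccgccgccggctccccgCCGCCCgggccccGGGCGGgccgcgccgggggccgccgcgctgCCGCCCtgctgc
Klf15: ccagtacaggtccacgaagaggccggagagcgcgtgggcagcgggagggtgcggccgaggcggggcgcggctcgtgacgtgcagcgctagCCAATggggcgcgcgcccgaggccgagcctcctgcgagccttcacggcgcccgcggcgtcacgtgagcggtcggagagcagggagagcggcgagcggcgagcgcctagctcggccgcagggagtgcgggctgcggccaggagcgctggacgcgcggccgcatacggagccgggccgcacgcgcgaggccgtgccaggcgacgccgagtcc
Nr1h3: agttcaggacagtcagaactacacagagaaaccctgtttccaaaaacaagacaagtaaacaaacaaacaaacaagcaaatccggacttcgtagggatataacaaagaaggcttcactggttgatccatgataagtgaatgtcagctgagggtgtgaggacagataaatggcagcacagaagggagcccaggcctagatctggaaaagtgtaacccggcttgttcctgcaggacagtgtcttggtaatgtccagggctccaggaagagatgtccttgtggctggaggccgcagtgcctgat

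The promoters of the 4 members that were low together differ in base content. That of Rxra is 84.7% G or C with 62 CG pairs, more G or C than 99.9% of the 33465 promoters, whose medians are 51.7% and 7 pairs. Klf15 has 77.3% and 51 pairs, Cebpa 68.7% and 28, and the Pparg starts 64.7% and 14, and 43.7% and 3. Nr1h3, the comparison, has 48.0% and 4, but Cebpb, also not low in the pair, has 81.0% and 56, so base content does not separate the low members from the others. No motif searched was shared by the promoters of all 4 and absent from that of Nr1h3.

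The GC box occurs 3 times at the first Pparg start, with an overlapping pair, 3 times in Cebpa and 5 times in Rxra, with 2 each in Cebpb and Ppara, and is in 33.1% of all promoters. The CCAAT box occurs once each at the second Pparg start and in Klf15, and is in 37.5%. The TATA box (14.2%) lies 35 bases before the start of Cebpa and 33 before that of Cebpb, and once after the first Pparg start. Cebpa alone of the promoters printed holds the C/EBP core site (17.8%), with 2 matches, 235 and 194 bases before its start. The letters AGGTCA, a nuclear receptor core site found in 16.2% of promoters, are in none of the members' windows. CACCC (54.9%) is in every member window, once overlapping a GC box in Cebpa, and TGACG (21.2%) is in those of Cebpb, where it overlaps CACCC once, and Klf15. These matches are descriptions of letters, and binding was not measured.

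Pparg (Entrez 25664), the nuclear receptor needed for fat cells to form, was well covered, at 179 to 1123 counts per library. In the HFB libraries its lowest level was 71.8 CPM, the median 357 CPM and the highest 389.8 CPM. In the CTL libraries the lowest was 104.6 CPM, the median 334 CPM and the highest 488 CPM. HFB 6 and CTL 14 were the low glands of their diets, CTL 9 was the highest of all, and the diets overlapped.

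Mean Pparg levels were 306 ± 122 CPM in HFB and 329.9 ± 126 CPM in CTL (SD, n = 6 each). Its log2 fold change, HFB over CTL, was -0.11 (SE 0.38; edgeR adjusted p = 0.999), with 4 HFB libraries above the CTL median. Without HFB 6 and CTL 14 it was -0.08 (SE 0.14), and without HFB 6 alone or CTL 9 alone its sign turned, to 0.10 and 0.04. HFB 6 held 20.1% and CTL 14 29.3% of the median Pparg level of the other 10. Those levels are 4.97-fold and 3.41-fold lower, and 695 and 479 of the 9382 genes stood at a lower percentage in those libraries.

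Cebpa (Entrez 24252), which keeps the mature fat cell state together with Pparg, had the largest ratio of highest to lowest level, 72.0, of the 8 members tested. Across the HFB libraries the lowest level was 3.21 CPM, the median 149 CPM and the highest 231 CPM. Across the CTL libraries the lowest was 17.3 CPM, the median 143 CPM and the highest 160.4 CPM. 10 glands lay within 126.8 to 231 CPM, HFB 6 and CTL 14 lay far under them, and the diets overlapped.

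In HFB 6 Cebpa had 8 counts, with a 95% Poisson interval of 3.45 to 15.8 counts, or 1.38 to 6.32 CPM. In CTL 14 it had 49 counts, with an interval of 36.3 to 64.8 counts, or 12.8 to 22.8 CPM. Both intervals, which cover counting error only, lie under each of the 10 other libraries. The levels were 2.12% and 11.4% of the median of the other 10, or 47.1-fold and 8.75-fold lower. Only 88 genes in HFB 6 and 89 in CTL 14 stood at a lower percentage than Cebpa.

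The standard deviation of log2 CPM of Cebpa over 12 libraries was 1.73, larger than for 99.4% of genes tested. Over the 10 other libraries it was 0.29, close to the median gene. By diet its mean was 147.6 ± 81.4 CPM in HFB and 123.7 ± 53.5 CPM in CTL (SD, n = 6 each). The log2 fold change was 0.25 (SE 0.64; edgeR adjusted p = 0.999), with 3 HFB libraries above the CTL median. Without the pair it was 0.28 (SE 0.16; edgeR adjusted p = 0.919), with a smaller standard error. Without HFB 6 alone it was 0.51 and without CTL 14 alone 0.03, so the low libraries, 1 in each diet, offset each other.

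Rxra (Entrez 25271), the shared partner of the PPAR and LXR receptors, had few counts, 5 to 74 per library. HFB levels had a lowest value of 2.0 CPM, a median of 15.8 CPM and a highest of 26.5 CPM. CTL levels had a lowest value of 3.52 CPM, a median of 21.0 CPM and a highest of 24.9 CPM. HFB 6, CTL 14 and HFB 5 were the low glands, and the diets overlapped.

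Counting error for Rxra is wide in those glands. HFB 6 had 5 counts (95% Poisson interval 1.62 to 11.7), CTL 14 had 10 (4.80 to 18.4) and HFB 5 had 14 (7.65 to 23.5). In CPM those intervals are 0.651 to 4.68, 1.69 to 6.48 and 2.96 to 9.09, and they overlap each other. They lie under the measured levels of the remaining 9 libraries, but the counting error of those 9 was not computed. The lowest of the 9, HFB 2, had 29 counts (12.4 CPM), so its separation from HFB 5 is not shown. HFB 6 stood at 9.54% and CTL 14 at 16.8% of the median of the other 10. Mean levels were 14.7 ± 9.74 CPM in HFB and 18.7 ± 7.73 CPM in CTL (SD, n = 6 each). The log2 fold change was -0.34 (SE 0.53; edgeR adjusted p = 0.999), or -0.33 (SE 0.31) without the pair, and 4 HFB libraries were below the CTL median. It was -0.08 with the lymphoid marker level as a covariate, -0.11 without HFB 6 alone, -0.17 without HFB 5 alone, -0.55 without CTL 14 alone and -0.60 without HFB 4 alone.

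Cebpb (Entrez 24253), an early activator of the fat cell program that many other cell types also express, had the highest HFB over CTL value of the members tested. HFB levels ran from 80.5 CPM, with a median of 108.9 CPM, to 192.7 CPM. CTL levels ran from 51.2 CPM, with a median of 81.7 CPM, to 109.8 CPM. HFB 3, HFB 5 and HFB 4 were above all CTL glands, HFB 1 and HFB 2 were just under the CTL median, and the diets overlapped.

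Cebpb means were 119.9 ± 43.8 CPM in HFB and 81.9 ± 21.8 CPM in CTL (SD, n = 6 each). Its log2 fold change was 0.55 (SE 0.24), with an unadjusted p of 0.0419 and an adjusted p of 0.999 by edgeR, so it failed the correction. Without HFB 6 and CTL 14 it was 0.58 (SE 0.26; edgeR adjusted p = 0.919). HFB 6 stood at 104.6% and CTL 14 at 81.4% of the median of the other 10, so the glands low in Cebpa had ordinary Cebpb. With 1 library left out at a time the log2 fold change ran from 0.36 to 0.65 and its unadjusted edgeR p from 0.0226 to 0.127. With upper-quartile scaling edgeR gave an unadjusted p of 0.0518, and limma voom gave 0.0799. Among the fits that leave out 1 library, the p rose above 0.05 without CTL 8, CTL 10, CTL 11, CTL 14, HFB 3, HFB 4 or HFB 5. Over the 10 libraries its spread on the log2 scale was 0.55, larger than for 86.5% of genes.

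Klf15 (Entrez 85497), a Krüppel-like factor that raises Pparg expression in fat cells, was near equal between the diets. Its HFB levels were 25.3 CPM at the lowest, 67.2 CPM at the median and 86.2 CPM at the highest. Its CTL levels were 25.4 CPM at the lowest, 65.0 CPM at the median and 94.3 CPM at the highest. The lowest gland of each diet was again HFB 6 or CTL 14, at 37.6% and 37.7% of the median of the other 10, and the diets overlapped. Mean levels were 64.8 ± 21.8 CPM in HFB and 65.4 ± 23.7 CPM in CTL (SD, n = 6 each). The log2 fold change was -0.01 (SE 0.31; edgeR adjusted p = 0.999), also -0.01 without the pair, and its sign turned without HFB 5, HFB 6, CTL 9 or CTL 11, with values up to 0.16.

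Ebf1 (Entrez 116543), which promotes fat cell formation and is also a master factor of B cells, was not high in the glands rich in lymphoid RNA. HFB levels were 16.2 CPM at the lowest, 21.0 CPM at the median and 35.1 CPM at the highest. CTL levels were 12.7 CPM at the lowest, 26.6 CPM at the median and 37.4 CPM at the highest. HFB 4 was the high gland of its diet, the other 5 HFB glands were below the CTL median, and the diets overlapped. HFB 6 stood at 77.8% and CTL 14 at 52.3% of the median of the other 10, while Cd79b stood at 4237% and 3722%. Mean levels were 22.4 ± 6.59 CPM in HFB and 26.6 ± 8.80 CPM in CTL (SD, n = 6 each). HFB over CTL, the log2 fold change was -0.24 (SE 0.26; edgeR adjusted p = 0.999), and -0.34 (SE 0.21) without the pair.

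Nr1h3 (Entrez 58852), the oxysterol receptor LXR alpha of fat cells, liver and macrophages, varied little. HFB levels spanned 148 to 239 CPM with a median of 172 CPM, and CTL levels spanned 124 to 179 CPM with a median of 160.3 CPM. HFB 5 was the highest and CTL 14 the lowest gland, and the diets overlapped. In HFB 6 it stood at 114% and in CTL 14 at 73.8% of the median of the other 10, so the pair did not move together. Mean levels were 181.7 ± 31.5 CPM in HFB and 158 ± 20.9 CPM in CTL (SD, n = 6 each). The log2 fold change was 0.20 (SE 0.14; edgeR adjusted p = 0.999), or 0.12 (SE 0.13) without the pair, and 5 HFB libraries were above the CTL median. It was 0.06 with limma voom and 0.10 without HFB 5.

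Ppard (Entrez 25682), the receptor tied to fatty acid oxidation in many tissues, had the narrowest range of the members tested. HFB levels spanned 23.3 to 35.8 CPM with a median of 31.3 CPM, and CTL levels spanned 28.1 to 39.6 CPM with a median of 34.1 CPM. HFB 6 was the lowest and CTL 11 the highest gland, only HFB 1 of its diet was above the CTL median, and the diets overlapped. Mean levels were 29.7 ± 4.86 CPM in HFB and 34.1 ± 4.36 CPM in CTL (SD, n = 6 each). Its log2 fold change was -0.20 (SE 0.15; edgeR adjusted p = 0.999), and -0.16 (SE 0.14) without the pair. HFB 6 stood at 72.0% and CTL 14 at 96.0% of the median of the other 10.

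Ppara (Entrez 25747), the receptor of fatty acid oxidation best known in liver, was near the limit of detection. It had 40 counts in all 12 libraries together, 0 to 7 in each, and CTL 11 had none. HFB levels spanned 0.401 to 2.73 CPM with a median of 1.22 CPM, and CTL levels spanned 0 to 2.23 CPM with a median of 1.23 CPM. The diets overlapped, and a diet difference in Ppara was not detectable at this depth.

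**Figure D2:**
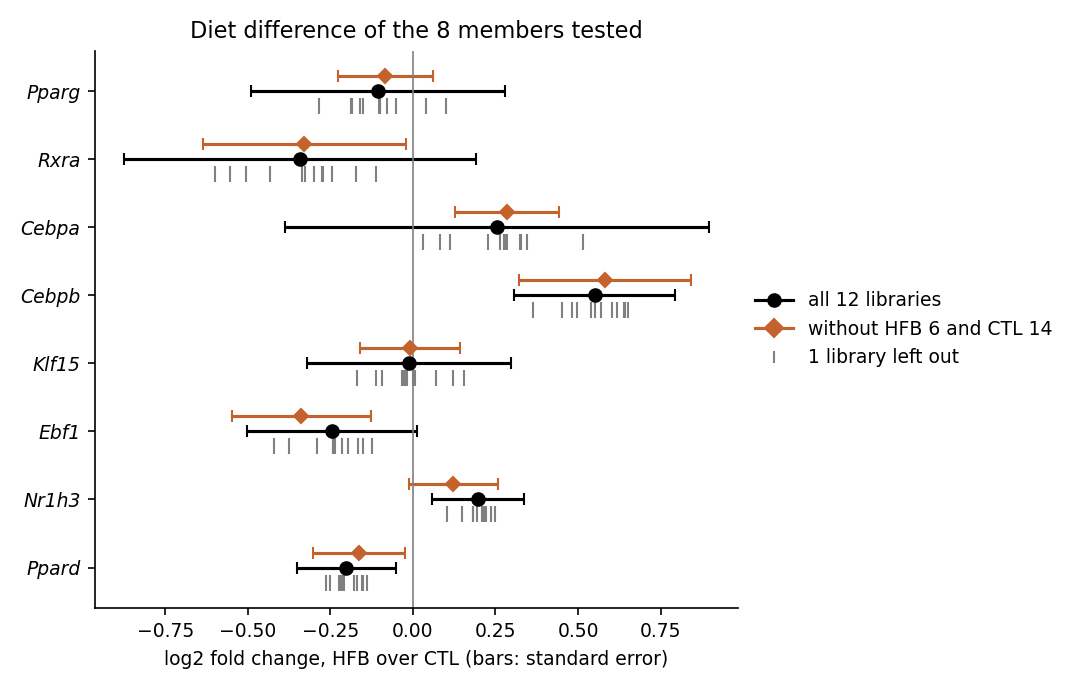
Log2 fold change, HFB over CTL, of the 8 members tested by edgeR, with bars of 1 standard error. Circles use all 12 libraries, diamonds leave out HFB 6 and CTL 14, and grey ticks leave out 1 library each. Cebpb has the highest value, 0.55, the ticks of Pparg and Klf15 lie on both sides of 0, and the bars of Cebpa shrink from 0.64 to 0.16 without the pair.

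How far the members spread across the glands differed by member. Over 12 libraries the log2 standard deviation was 1.73 for Cebpa, 1.12 for Rxra, 0.83 for Pparg and 0.62 for Klf15, against 0.40 for the median gene. Over the 10 libraries without the pair it was 0.29, 0.64, 0.22 and 0.24, against 0.29. Pparg and Klf15 thus went from above the median gene to below it, while Rxra remained above it, with more spread than 90.2% of genes. HFB 5, with 14 Rxra counts, was the lowest of those 10 at 2.63 log2 CPM, and the nearest was HFB 2 at 3.72. The spread of Rxra without HFB 5 was not computed. Nr1h3 and Ppard had 0.23 each over 12 libraries, more than 13.6% and 13.3% of genes.

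Cebpb acts before Cebpa in fat cell formation, so their balance was compared within each library. In the HFB libraries the log2 ratio of Cebpb to Cebpa counts was -0.99 at the lowest, -0.51 at the median and 4.94 at the highest, in HFB 6. In the CTL libraries it was -1.56 at the lowest, -0.66 at the median and 2.15 at the highest, in CTL 14. Those glands had 30.6 and 4.43 Cebpb counts per Cebpa count, while the other 10 had 0.339 to 1.07, and the diets overlapped. The means were 0.36 ± 2.28 in HFB and -0.35 ± 1.28 in CTL, a difference of 0.72 (SD, n = 6 each; two-sided exact permutation p = 0.545). Without the pair the difference was 0.30 (exact permutation p = 0.333), without HFB 6 alone -0.20 and without CTL 14 alone 1.22 (exact permutation p = 0.182).

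Pparg and Rxra form the receptor pair that binds DNA, so their ratio was also compared. The log2 ratio of Pparg to Rxra counts ran from 3.73 in HFB 4 to 5.67 in HFB 5 (median 4.66), and from 3.75 in CTL 11 to 4.89 in CTL 14 (median 4.13). HFB 5, with 14 Rxra counts, was the highest gland, and the diets overlapped. The means were 4.65 ± 0.74 in HFB and 4.23 ± 0.47 in CTL, a difference of 0.41 (SD, n = 6 each; two-sided exact permutation p = 0.277). Without HFB 5 the difference was 0.21, and without HFB 6 and CTL 14 it was 0.44 (exact permutation p = 0.325). As counts are not scaled by transcript length, a ratio does not say which of the pair has more molecules.

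**Figure D3:**
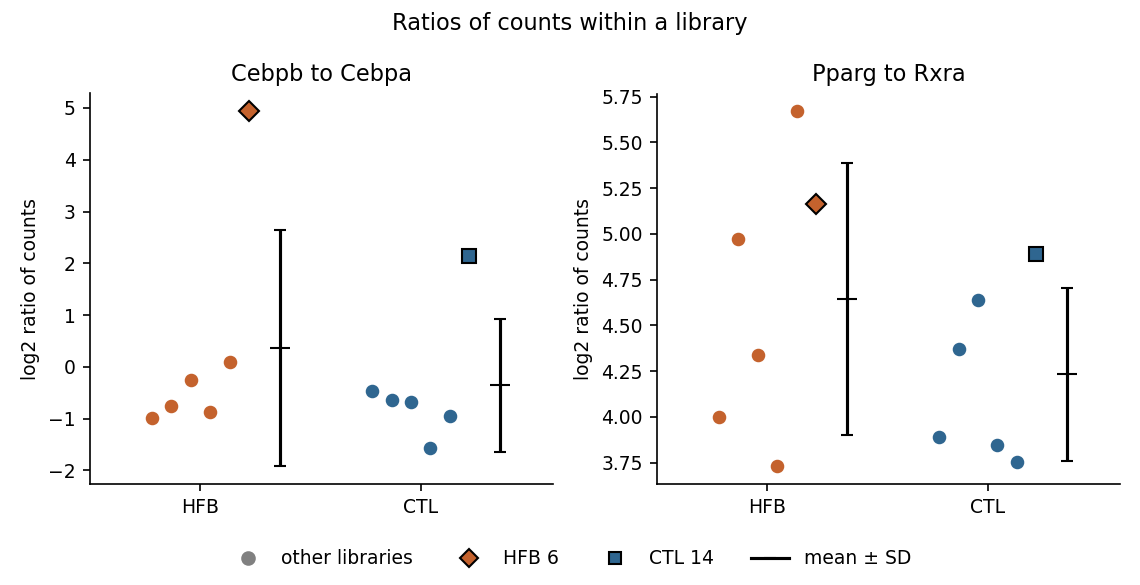
Log2 ratio of counts within each library, Cebpb to Cebpa on the left and Pparg to Rxra on the right, by diet, with the mean and 1 SD. HFB 6 (4.94) and CTL 14 (2.15) are far above the other 10 libraries on the left, and the diets overlap in both panels.

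Whether the members rise and fall together across glands was examined in 100 relations, 28 between members and 72 between a member and a marker list. HFB 6 and CTL 14 form a cluster of their own for several members, so no r over all 12 is given for a single pair. Over 12 libraries 17 relations had an adjusted permutation p under 0.05 by Pearson's r and 2 by Spearman's rho. Over the 10 other libraries 0 did by either, with 8 at an unadjusted permutation p under 0.05 by r. Of the 17 relations, 12 had r of 0.79 to 0.96 in size over 12 libraries and 0.0267 to 0.51 over the 10, so their size rests on the pair. The other 5 had 0.70 to 0.96 over 12 and 0.65 to 0.82 over the 10, each with an unadjusted permutation p under 0.05. Cebpa and Pparg, which were low together in that pair, had r = 0.22 (permutation p = 0.511, adjusted p = 0.875) and rho = 0.10 (permutation p = 0.785, adjusted p = 0.967) over the 10, and r = 0.36 without the 2 farthest.

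Among the 10 libraries, the pair of measures with the smallest permutation p by r was Pparg and the brown adipocyte markers. These were 4 of 5 in the table, led by Cidea, a lipid droplet protein of brown fat. They summed to 100.7 to 478 CPM (median 183) in the 10 libraries, 81.8 CPM in HFB 6 and 84.2 CPM in CTL 14. CTL 9, the gland highest in Pparg, was also the highest in their sum. In their mean log2 CPM, which the relation uses, HFB 3 (4.33) was above CTL 9 (4.09). That mean weights the genes equally, and Elovl3 (median 0 CPM) and Otop1 (median 2.55 CPM) had few counts in the 10. The relation had r = 0.82 (permutation p = 0.00323, adjusted p = 0.321) and rho = 0.85 (permutation p = 0.00317, adjusted p = 0.317). Without HFB 3 and HFB 5, the farthest on the marker axis, r was 0.82. It does not pass the adjustment over 100 relations.

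The other relations with r past an unadjusted p of 0.05 also failed the adjustment. Rxra and Ebf1 had r = 0.72 (permutation p = 0.0069, adjusted p = 0.321) and rho = 0.78 (permutation p = 0.0109, adjusted p = 0.477). Without the 2 farthest r was 0.72. By diet, r was 0.83 over the HFB libraries of the 10 but 0.03 over the CTL libraries. Rxra and Nr1h3 had r = -0.87 (permutation p = 0.0100, adjusted p = 0.321) and rho = -0.64 (permutation p = 0.0550, adjusted p = 0.550). That relation rests on HFB 5 and CTL 7, since r was -0.44 without them, and HFB 5 had the lowest Rxra and highest Nr1h3 of the 10. Pparg and Klf15 had r = 0.70 (permutation p = 0.0152, adjusted p = 0.321) and rho = 0.60 (permutation p = 0.0744, adjusted p = 0.620), with r = 0.42 without CTL 9 and HFB 3, on which it rests.

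Tissue markers gave the remaining ones. Ebf1 and the fibroblast markers had r = 0.72 (permutation p = 0.0161, adjusted p = 0.321) and rho = 0.72 (permutation p = 0.0231, adjusted p = 0.477), with r = 0.61 without the 2 farthest. Ebf1 and the endothelial markers had r = 0.64 (permutation p = 0.0479, adjusted p = 0.599) and rho = 0.68 (permutation p = 0.0337, adjusted p = 0.481), with r = 0.53 without the 2 farthest. Pparg and the epithelial markers ran opposite ways, with r = -0.65 (permutation p = 0.0387, adjusted p = 0.599) and rho = -0.70 (permutation p = 0.0307, adjusted p = 0.481), and r = -0.87 without the 2 farthest. Klf15 and the brown adipocyte markers had r = 0.65 (permutation p = 0.0471, adjusted p = 0.599) and rho = 0.66 (permutation p = 0.0447, adjusted p = 0.497), with r = 0.47 without the 2 farthest. Some relations passed an unadjusted p of 0.05 by rho but not by r, and failed the adjustment. Adipocyte markers had rho = -0.76 with Rxra (permutation p = 0.0146, adjusted p = 0.477, r = -0.34). With Nr1h3 they had rho = 0.72 (permutation p = 0.0239, adjusted p = 0.477, r = 0.46). Endothelial markers and Klf15 had rho = 0.67 (permutation p = 0.0391, adjusted p = 0.488, r = 0.57). Skeletal muscle markers and red blood cell markers (6 of 8, led by Hbb, summed to 9050 to 92832 CPM over the 12 libraries) had no relation to a member past that p over the 10.

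**Figure D4:**
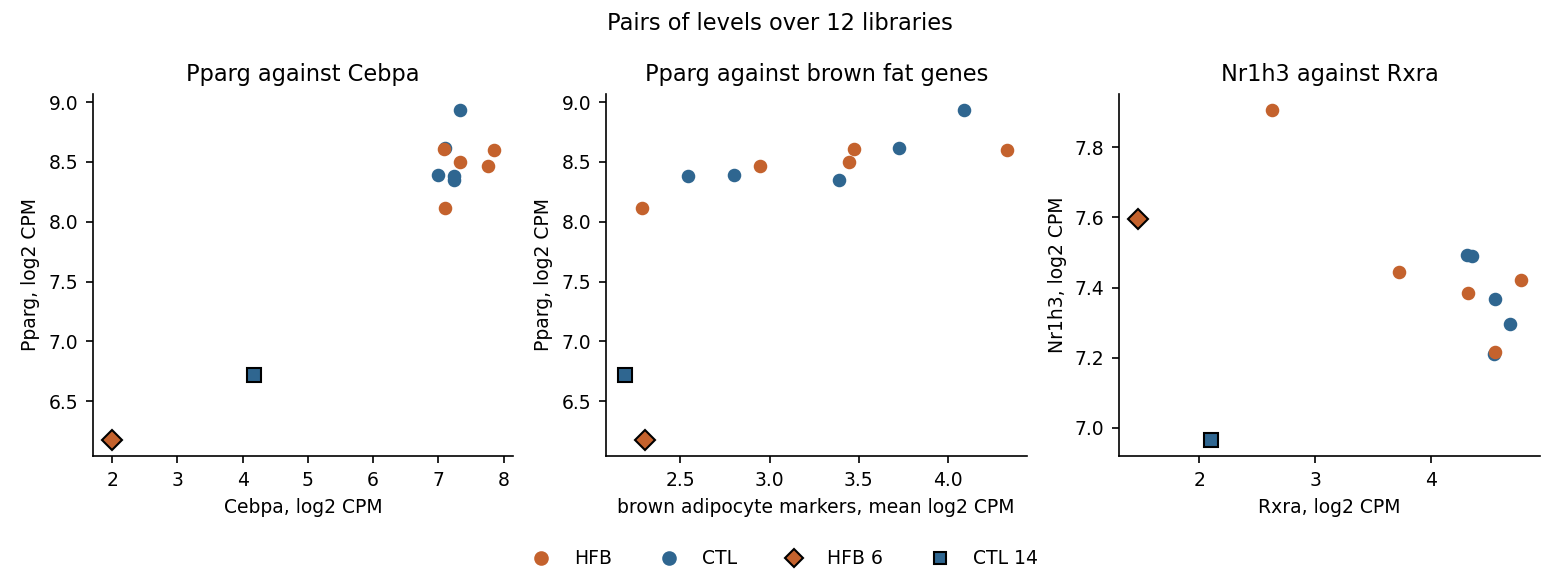
Log2 CPM of member pairs, or of Pparg and the mean log2 CPM of the brown adipocyte markers, with 1 point per library, on axes that do not start at 0. HFB 6 and CTL 14 lie far from the other 10 libraries on the left, and HFB 5 is the highest point on the right. Over the 10 libraries r is 0.22 on the left, 0.82 in the middle and -0.87 on the right.

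The 3 genes of highest likeness to a member over all 12 libraries are named as a description. They were ranked by r of log2 CPM over 12 libraries among all genes tested, and since HFB 6 and CTL 14 weigh on that ranking, the r given is that over the other 10, where other genes often ranked higher. For Pparg they were Ywhab (0.78), Plin1 (0.71), which coats the lipid droplet of fat cells, and Dmtn (0.69), which ranked 46, 165 and 205 over the 10. For Cebpa they were Zfyve21 (0.46), Fnta (0.66) and Jdp2 (0.62), which ranked 570, 75 and 130. For Klf15 they were Cdo1 (0.75), Stk16 (0.74) and Dmtn (0.74), which ranked 54, 60 and 64.

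The genes named for Rxra included Slc25a30 (0.94) and Acap2 (0.93), which ranked 67 and 84. For Nr1h3 they were Adissp (0.95), Eif4ebp1 (0.89) and C2 (0.91), which ranked 1, 32 and 17. For Ebf1 they were Ccdc50 (0.92), Ulk2 (0.89) and Tm9sf4 (0.85), which ranked 5, 18 and 61. Cebpb was followed by Rps2 (0.95), Engase (0.83) and Coa8 (0.80), which ranked 1, 30 and 50. Ppard was followed by Harbi1 (0.88), Lig4 (0.76) and Btbd9 (0.76), which ranked 1, 16 and 15.

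The genes downstream of the members were described from lists written for the tissue, and no list had a gene past the adjusted p in edgeR. Of the Pparg and Cebpa target genes, which store and release lipid, 26 of 31 were in the table and 26 tested. 17 had a higher and 9 a lower value in HFB, with a median log2 fold change of 0.05 against 0.00018 for all genes. None had an unadjusted p under 0.05, and the smallest, 0.153, was that of Me1, an enzyme that makes NADPH for fat synthesis. The most abundant were Scd, a fatty acid desaturase, at 31838 ± 18223 CPM in HFB and 28317 ± 16591 CPM in CTL, and Fabp4, a fatty acid carrier, at 20128 ± 3768 and 18996 ± 4096 CPM (SD, n = 6 each).

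In HFB 6 and CTL 14 most of these target genes were low, as Pparg and Cebpa were. 19 of the 26 were below all 10 other libraries in both, as were 19.2% of all genes tested, and their median level was 31.0% in HFB 6 and 36.4% in CTL 14 of the median of the other 10. Scd stood at 17.8% and 25.2%, and Fabp4 at 71.1% and 55.8%. Among the exceptions, Angptl4 was at 285% in HFB 6 and 66.2% in CTL 14, beside Cfd and Retn. Over all genes tested those medians were 97.3% and 99.4%. The adipocyte markers given above are not a separate observation, since all 8 are among these 26. Of the other 18 target genes 13 were below all 10 libraries in both, with medians of 27.9% and 36.4%.

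**Figure D5:**
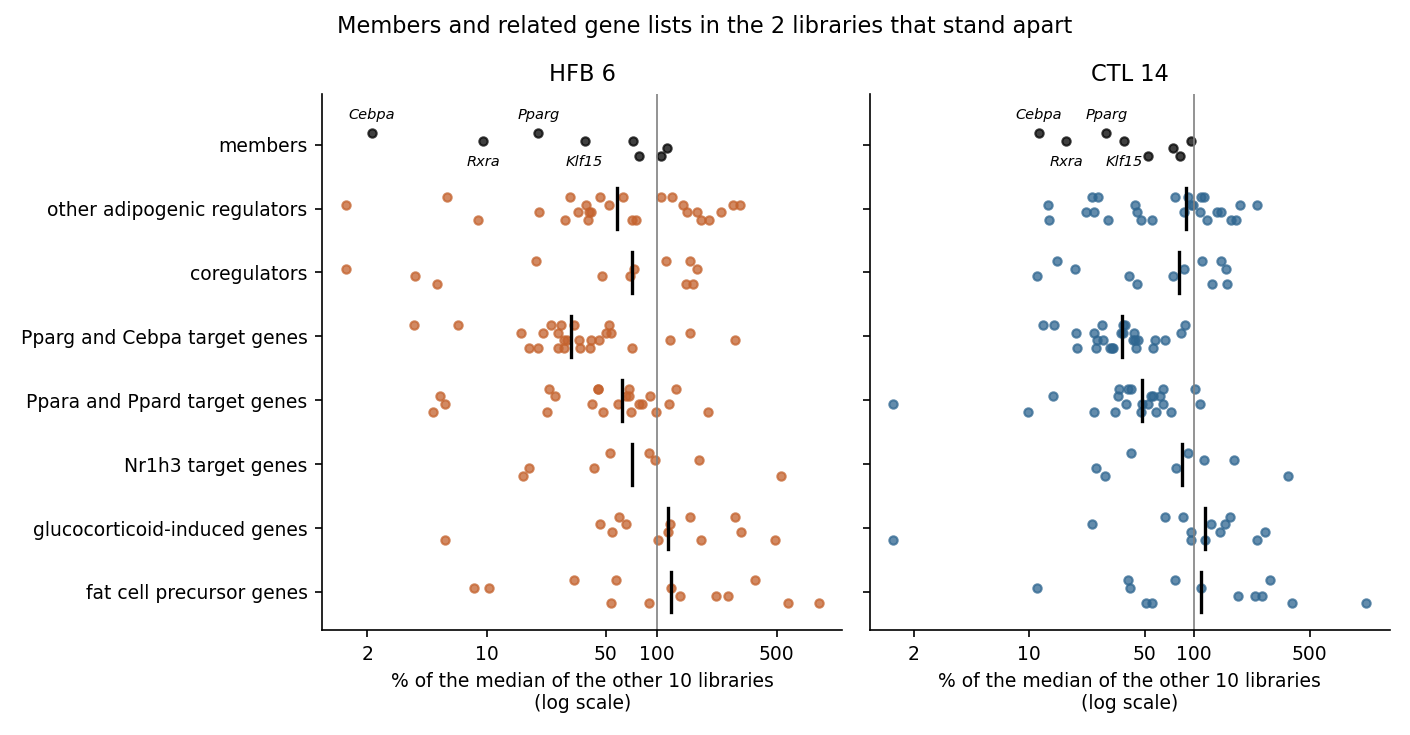
Level of each tested gene in HFB 6 (left) and CTL 14 (right) as a percentage of its median over the other 10 libraries, on a log axis, for the members and 7 gene lists, with a bar at each list's median. Genes with no counts are drawn at the left edge. Cebpa, at 2.12% and 11.4%, is the lowest member in both, and the Pparg and Cebpa target genes have the lowest list medians, 31.0% and 36.4%.

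Ppara and Ppard target genes, most of them enzymes of fatty acid oxidation, had 26 of 26 in the table and 22 tested. 15 had a higher and 7 a lower value in HFB, with a median log2 fold change of 0.09, none had an unadjusted p under 0.05, and the smallest was 0.237, for Decr1. Decr1, an enzyme for unsaturated fatty acids, was at 329.8 ± 37.8 CPM in HFB and 285 ± 66.7 CPM in CTL, and Hadhb, of the mitochondrial trifunctional protein, at 430.2 ± 120.4 and 411 ± 124.7 CPM (SD, n = 6 each). 14 of the 22 were below all 10 other libraries in HFB 6 and CTL 14, beside 19.2% of all genes, with medians of 62.4% and 48.0%.

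Nr1h3 target genes, of sterol handling and fat synthesis, had 11 of 15 in the table and 8 tested. 4 had a higher and 4 a lower value in HFB, with a median log2 fold change of 0.07. The smallest unadjusted edgeR p was 0.0937, for the cholesterol transporter Abcg1, with a log2 fold change of -0.39 (SE 0.22). Apoe, the lipid carrier of macrophages and liver, was at 1325 ± 1358 CPM in HFB and 1136 ± 839 CPM in CTL (SD, n = 6 each). It stood at 532% in HFB 6 and 369% in CTL 14 of the median of the other 10, against 17.8% and 25.2% for Scd. Scd is also among the Pparg and Cebpa target genes above and is counted in this list too. Genes of this list thus lay on both sides in the pair. Of them, 4 of 8 were below all 10 others in both, beside 19.2% of all genes. The summed macrophage markers were highest there but their mean log2 CPM was not, as given above, and their part was not tested.

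Other adipogenic regulators, factors that promote or block fat cell formation, had 28 of 29 in the table and 26 tested. 10 had a higher and 16 a lower value in HFB, with a median log2 fold change of -0.10, and 1 was past an unadjusted p of 0.05, beside 2.34% of all genes. That was Gata3, which restrains fat cell formation, at 3.74 ± 1.86 CPM in HFB and 7.07 ± 2.62 CPM in CTL (SD, n = 6 each). Its log2 fold change was -0.91 (SE 0.36), with an unadjusted p of 0.0253 and an adjusted p of 0.999 by edgeR, and 0 of the HFB libraries were above the CTL median. In 5 of 18 alternatives that p was above 0.05, up to 0.0527 in edgeR. Gata3 had few counts, 7 in HFB 6 and 20 in CTL 14, and which cells its RNA came from was not tested. The most abundant were Nr3c1, the glucocorticoid receptor, at 174 ± 55.4 and 188 ± 51.0 CPM, and Nr1h2, which encodes LXR beta, the close relative of Nr1h3, at 100.6 ± 35.3 and 91.2 ± 22.5 CPM (SD, n = 6 each). In the pair they differed: Nr3c1 stood at 40.8% and 44.8%, and Nr1h2 at 200.2% and 168%, of the median of the other 10. 5 of the 26 were below all 10 others in both, near the 19.2% of all genes.

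Coregulators of the receptors had 14 of 21 in the table and 12 tested. 3 had a higher and 9 a lower value in HFB, with a median log2 fold change of -0.11, none past an unadjusted p of 0.05, and the smallest 0.151, for Med14. Tle3, a cofactor of Pparg in fat cells, was at 85.3 ± 19.8 CPM in HFB and 81.4 ± 18.7 CPM in CTL, and Nrip1, a corepressor of nuclear receptors, at 76.1 ± 21.9 and 89.3 ± 33.4 CPM (SD, n = 6 each). In HFB 6 and CTL 14, Tle3 stood at 155.6% and 144% and Nrip1 at 47.6% and 40.2% of the median of the other 10. Of the 12 coregulators tested, 2 were below all 10 others in both, near the 19.2% of all genes.

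Glucocorticoids start fat cell formation through early factors such as Cebpd, and 14 of 14 glucocorticoid-induced genes were in the table and 13 tested. 9 had a higher and 4 a lower value in HFB, with a median log2 fold change of 0.19. Dusp1, a phosphatase of MAP kinases, was the 1 of 13 past an unadjusted p of 0.05, beside 2.34% of all genes, at 162 ± 48.7 CPM in HFB and 115 ± 20.3 CPM in CTL (SD, n = 6 each). Its log2 fold change was 0.49 (SE 0.20), with an unadjusted p of 0.0326 and an adjusted p of 0.999 by edgeR, and 5 HFB libraries were above the CTL median. In 5 of 21 alternatives, each leaving out 1 library, that p was above 0.05, up to 0.0916 in edgeR. The most abundant were Tsc22d3, at 310.2 ± 80.7 and 263 ± 74.5 CPM, and Angptl4, an inhibitor of lipoprotein lipase, at 205 ± 149 and 134 ± 45.9 CPM (SD, n = 6 each). Tsc22d3 was above the CTL median in 6 HFB libraries, with a log2 fold change of 0.24 (SE 0.20; edgeR adjusted p = 0.999). Over the alternatives that fold change ran from 0.0894 to 0.404. No gene of the list was below all 10 others in both HFB 6 and CTL 14, beside 19.2% of all genes.

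The fat cell precursor list holds signals that restrain fat cell formation and genes of the cells that can become fat cells. Of its 18 genes, 15 were in the table and 13 tested. 7 had a higher and 6 a lower value in HFB, with a median log2 fold change of 0.08, and none was past an unadjusted p of 0.05. Pdgfra, a growth factor receptor of those cells, was at 129 ± 32.2 CPM in HFB and 169.9 ± 46.1 CPM in CTL (SD, n = 6 each), with 0 HFB libraries above the CTL median. Its log2 fold change was -0.39 (SE 0.22; edgeR adjusted p = 0.999). Zfp36l2 was at 194 ± 18.4 and 176 ± 16.3 CPM (SD, n = 6 each). In HFB 6 and CTL 14 the genes of this list went both ways, so its median (121% and 109.6%) stands for few of them. Which cells their RNA came from was not tested. 4 of the 13 were below all 10 other libraries in both: Pdgfra (53.3% and 51.1%), Cd34 (10.3% and 40.6%), Wnt5a (8.49% and 11.2%) and Sfrp4 (32.5% and 39.5%). 5 were above all 10 in both, beside 19.2% of all genes below and 22.3% above: Pdgfrb (219.8% and 258%), Icam1 (259% and 234%), Tgfb1 (373% and 287%), Gli1 (582% and 392%) and Ly6c (882% and 1101%).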

How the data were processed

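RNA of 12 mammary glands was sequenced, 6 per diet. The deposited table holds counts per gene (Entrez Gene ID), not normalized, which the authors made. The submitters' processing notes name CASAVA 1.8, bcl2fastq, TopHat, DESeq and the build rn4, and do not state the counting program or the use of strand. The range of total counts per diet is given with the results, and intervals and limits cover counting error only, with a floor of 3 counts. Libraries were grouped by the diet in their labels.

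Genes were tested with edgeR 4.0.16 (TMM, filterByExpr, quasi-likelihood test) in R 4.3.3, with p-values adjusted by Benjamini-Hochberg over the 9382 genes kept. Alternatives were DESeq2 1.42.0, its size factors, upper-quartile scaling, voom with quality weights (limma 3.58.1), no filter, a minimum of 10 counts per library, adipocyte or lymphoid marker level as a covariate, and each library left out. Leaving out HFB 6 and CTL 14 together was chosen after seeing the data. Ratios of counts used two-sided exact permutation tests over 924 assignments (scipy 1.17.1), and relations used 100000 permutations of log2 CPM. The planned ratio with Cebpd became Cebpb to Cebpa, as Cebpd was not analysed here. Promoters are from RefSeq (GRCr8).

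The text names the members, from each list the genes at an unadjusted p under 0.05 and the 2 most abundant, and up to 3 genes most like each member over 12 libraries. Med14, Me1 and Abcg1, the genes of smallest p in their lists, were chosen after their values were seen. So were Cfd, Retn, Cdh5, Epcam, Mrc1 and the fat cell precursor genes named for HFB 6 and CTL 14, and the comparison of Nr1h3 with the members that were low together. The members and lists were chosen with earlier results of these data known.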

Additional observations from a re-analysis of the deposited data

Results flagged for a closer look

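In each diet, the lowest or highest of 6 libraries was noted when its gap to the nearest other library passed the 95% limit of Dixon's test. Chance flags about 1 in 20 groups. Here 38 groups were examined (19 quantities in both diets), 1.9 would be expected by chance, and 16 values passed, 14 of them in HFB 6 or CTL 14. The cause was not tested.

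For the members, the value far below its diet was log2 CPM of Cebpa in HFB 6 (1.99, nearest 7.09) and CTL 14 (4.17, nearest 7.0). The same held for Pparg in HFB 6 (6.18, nearest 8.11) and CTL 14 (6.72, nearest 8.35), and for Klf15 in HFB 6 (4.70, nearest 5.93) and CTL 14 (4.71, nearest 5.91). For Rxra it held in CTL 14 (2.10, nearest 4.30). The log2 ratio of Cebpb to Cebpa was far above its diet in HFB 6 (4.94, nearest 0.10) and CTL 14 (2.15, nearest -0.46).

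For the markers, mean log2 CPM of the adipocyte list was far below its diet in HFB 6 (10.07, nearest 10.88) and CTL 14 (9.80, nearest 11.03). That of the fibroblast list was so in HFB 6 (9.04, nearest 9.92) and CTL 14 (9.09, nearest 10.21). The lymphoid list was far above its diet in CTL 14 (6.33, nearest 2.08), the macrophage list in HFB 5 (6.18, nearest 5.98) and the red blood cell list in CTL 9 (11.31, nearest 9.51).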

How the results depend on the processing

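No gene passed an adjusted p under 0.05 in edgeR, nor under any alternative run with edgeR, DESeq2 or limma voom; 220 passed an unadjusted p under 0.05 in edgeR and 271 in DESeq2. The unadjusted edgeR count of 220 moved to 613 with limma voom, 562 with the adipocyte and 361 with the lymphoid marker covariate, and 431 without HFB 6 and CTL 14. With 1 library left out it ran from 135 to 587 (378 without HFB 1, 389 HFB 4, 135 HFB 5, 141 CTL 7, 141 CTL 10, 137 CTL 11, 587 CTL 14). Its 122 higher and 98 lower genes turned to a majority lower with limma voom (269 and 344), upper-quartile scaling (105 and 108), without HFB 5 (56 and 79) and without HFB 6 (112 and 157), and were 417 and 170 without CTL 14. With a 2-fold change added the 11 genes became 113 with no filter, 4 with a minimum of 10 counts per library, 64 with limma voom and 30 without HFB 6 and CTL 14. With 1 library left out they ran from 8 to 128 (20 without HFB 1, 25 HFB 4, 17 HFB 6, 33 CTL 9, 128 CTL 14). The cause was not tested.

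The log2 fold change kept its sign for Cebpa, Cebpb, Rxra, Nr1h3, Ppard and Ebf1 in each alternative that could be fitted. With 1 library left out it ran from 0.03 to 0.51 for Cebpa, 0.36 to 0.65 for Cebpb, -0.60 to -0.11 for Rxra (-0.08 with the lymphoid covariate), 0.10 to 0.25 for Nr1h3, -0.26 to -0.14 for Ppard and -0.42 to -0.12 for Ebf1. Other alternatives gave 0.54 for Cebpa and -0.15 for Ebf1 with the lymphoid covariate, and 0.06 for Nr1h3 with limma voom. That of Pparg turned to 0.0853 with the lymphoid covariate, and ran from -0.28 to 0.10 (0.10 without HFB 6, 0.04 CTL 9). That of Klf15 turned to 0.0778 with limma voom and 0.145 with the lymphoid covariate, and ran from -0.17 to 0.16 (0.0077 without HFB 5, 0.16 HFB 6, 0.12 CTL 9, 0.07 CTL 11). Cebpa and Rxra have libraries under 10 counts and could not be tested under that filter. The unadjusted p of Cebpb was above 0.05 with upper-quartile scaling in edgeR (0.0518) and limma voom (0.0799). Ppara was tested only with no filter (0.22, edgeR unadjusted p = 0.722). The cause was not tested.

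Other named genes turned sign too: Nr3c1 0.0066 and Tle3 -0.00147 with the lymphoid covariate, Apoe -0.21 and Angptl4 -0.38 with limma voom, and Apoe -0.036 without HFB 6 and CTL 14. With 1 library left out the ranges were Nr3c1 -0.25 to 0.034 (highest without HFB 6), Nr1h2 -0.0404 to 0.30 (lowest without HFB 6), Tle3 -0.0652 to 0.20 (lowest without HFB 6, -0.0121 CTL 8), Scd -0.0435 to 0.41 (-0.00376 without HFB 1, -0.0435 HFB 2, -0.0207 CTL 14), Fabp4 -0.0176 to 0.16 (lowest without CTL 14), Hadhb -0.0776 to 0.21 (-0.0033 without HFB 1, -0.0776 CTL 14) and Apoe -0.55 to 0.76 (lowest without HFB 6). The cause was not tested.

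Some unadjusted p-values, none adjusted, changed sides of 0.05. Gata3 went above it without HFB 1 (0.0521), HFB 3 (0.0504), CTL 10 (0.0525), CTL 11 (0.0527) or HFB 6 and CTL 14 together (0.0527), and Dusp1 without HFB 1 (0.0654), HFB 2 (0.0916), CTL 7 (0.0543), CTL 9 (0.0689) or CTL 10 (0.0673). Pdgfra went under it in 4 alternatives (lowest 0.00794), Abcg1 in 6 (0.0131), and Me1 (0.0233), Med14 (0.0486) and Tsc22d3 (0.0414) in 1 each. The cause was not tested.

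The HFB minus CTL difference in the log2 ratio of Cebpb to Cebpa ran from -0.20 (without HFB 6) to 1.22 (without CTL 14), and that of Pparg to Rxra from 0.21 to 0.60. The 17 relations called over 12 libraries stayed at 17 with a prior count of 0.5 and with DESeq2 size factors, and went to 0 without HFB 6 and CTL 14. The cause was not tested.

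No paired analysis was possible because no library number occurs in both diets. With 6 glands per diet and few counts for Rxra and Ppara, small differences in those genes were not detectable. The RNA of separate cell types cannot be told apart, no batch is given, and the litter is the unit of replication.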
